A study of Mus musculus with 4 samples.

Results

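The metallothionein genes Mt1 and Mt2, the zinc-sensing transcription factor gene Mtf1, the zinc exporter gene Slc30a1 and the zinc importer genes Slc39a1 and Slc39a14 were followed in CD45 positive cells, the leukocytes, of the mouse spinal cord. The 6 genes were taken by their symbols out of 31053 features, and all 6 had UMIs in each of the 4 libraries. Immune cells of 3-month-old C57BL/6 mice of both sexes, pooled from several animals, were sorted and profiled by droplet scRNA-seq, in which each captured mRNA molecule is counted once by its unique molecular identifier (UMI). There was 1 library for each condition. These were sham (day 0) dissociated by the standard protocol and sham dissociated with actinomycin D (ActD, a transcription inhibitor, labelled Act-seq). The others were moderate contusion injury at 3 and at 14 days post injury (dpi). The labels title both sham libraries as healthy spinal cords, while the study calls them sham. For its sham mice the study describes laminectomy without contusion. The study describes ActD-based dissociation for the injured cords too, although the labels name it only for the sham library. All ratios to sham below share the same ActD sham library as their control.

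Metallothioneins are small cysteine-rich proteins that bind zinc and copper and buffer oxidants. When free zinc rises, MTF-1, the protein of Mtf1, binds metal response elements and switches on Mt1, Mt2 and Slc30a1, whose product ZnT1 carries zinc out of the cell. ZIP1 (Slc39a1) and ZIP14 (Slc39a14) bring zinc into the cytosol, and ZIP14 also carries iron and manganese. Mt1 and Mt2 are also known to respond to glucocorticoids, oxidants and cytokines such as IL-6, and Slc39a14 to IL-6.

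Mt2 lies at chromosome 8, 94172664 to 94173568, and Mt1 downstream of it at 94179082 to 94180327, both on the plus strand of GRCm38 (mm10) and 5513 bases apart. Mtf1 lies at chromosome 4, 124802104 to 124849800, Slc30a1 at chromosome 1, 191906767 to 191913247, Slc39a1 at chromosome 3, 90248172 to 90253612 (all on the plus strand), and Slc39a14 at chromosome 14, 70303469 to 70351425, on the minus strand. All 6 are annotated as protein coding. The 250 bases before the RefSeq start of Mt1, Mt2 and Slc30a1 (GRCm38.p6, plus strand, 5′ to 3′) are shown because these are the textbook targets of MTF-1. Capitals mark the core letters of a metal response element, TGCACNC or TGCGCNC, read on either strand.
Mt1, chr8:94178839-94179088: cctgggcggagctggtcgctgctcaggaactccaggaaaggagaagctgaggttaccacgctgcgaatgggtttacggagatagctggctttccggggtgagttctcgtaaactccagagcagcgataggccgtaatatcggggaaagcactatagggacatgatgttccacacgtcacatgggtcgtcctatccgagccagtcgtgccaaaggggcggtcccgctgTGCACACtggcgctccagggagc
Mt2, chr8:94172368-94172617: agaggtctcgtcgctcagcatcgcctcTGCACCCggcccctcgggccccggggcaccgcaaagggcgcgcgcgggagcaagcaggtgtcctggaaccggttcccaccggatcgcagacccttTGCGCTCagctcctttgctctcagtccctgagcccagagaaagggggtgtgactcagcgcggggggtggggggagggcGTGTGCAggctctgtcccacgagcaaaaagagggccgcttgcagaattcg
Slc30a1, chr1:191906531-191906780: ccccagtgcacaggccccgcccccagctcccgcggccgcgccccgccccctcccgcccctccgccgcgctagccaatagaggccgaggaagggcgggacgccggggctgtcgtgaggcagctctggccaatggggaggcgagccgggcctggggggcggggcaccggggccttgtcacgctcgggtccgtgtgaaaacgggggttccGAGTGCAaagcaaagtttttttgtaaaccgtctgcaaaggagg
Mt2 held 3 cores, Mt1 held 1 and Slc30a1 held 1, while Mtf1 and Slc39a1 held 0. Slc39a14 had no entry. At least 1 core was found in 21.4% of 32851 promoters of the same length, and at least 3 in 1.26%. The letters were only matched, and binding was not measured. The start site matters here, because the GENCODE annotation has Mt1 starts up to 152 bases and Mt2 starts up to 242 bases beyond the RefSeq start. The 159 bases between the first and last Mt1 start held 4 further cores, and the 196 bases between the Mt2 starts held 3.

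After filtering, 5035 cells of the standard sham, 2135 of the ActD sham, 8214 at 3 dpi and 9078 at 14 dpi remained, with a median of 7426 to 9672 UMIs per cell. Clusters were named from marker genes in each library. Microglia numbered 3039 in the standard sham, 1577 in the ActD sham, 616 at 3 dpi and 4280 at 14 dpi. Their 10 microglial markers summed to 15660, 28855, 6076 and 11971 CPM (UMIs scaled to the total of the class) in that order, so the marker level was lowest at 3 dpi. The 9 injury macrophage markers in the same cells summed to 539, 483, 26135 and 9640 CPM. The 6 astrocyte markers summed to 98.7, 118, 16.9 and 47.9 CPM, with Aqp4 at 0 in the standard sham and at 3 dpi. A further 14 immediate early genes, known to respond to cell dissociation, summed to 37085 CPM in microglia of the standard sham, 796 in the ActD sham, 5250 at 3 dpi and 637 at 14 dpi. The 3 dpi library thus stood above the ActD sham in these genes, and the 14 dpi library did not. The part of these genes and of macrophage RNA in the ratios of microglia was not tested. The standard sham and 3 dpi counts came from Cell Ranger 3.0.1, those of the ActD sham and 14 dpi from 3.1.0. Ratios of the standard sham and of 3 dpi to the ActD sham thus cross versions. Ratios of 14 dpi to 3 dpi cross them too, and the part of version was not tested. The libraries shared 75 barcodes among kept cells, and no ratio of a member moved beyond its interval without them. With 1 library per condition no difference could be tested, and the 95% intervals given here cover counting error only.

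The level of Mt1 in microglia differed strongly between libraries. It was 1134 CPM in the standard sham (95% interval 1120 to 1148), 115 in the ActD sham (110 to 120), 685 at 3 dpi (670 to 700) and 334 at 14 dpi (329 to 339). The ActD sham was therefore lowest, the 3 dpi library higher than the 14 dpi library, and no intervals overlapped. Thinned to 1000 UMIs per cell, which left out 1 to 8 cells per library, 42.3% of microglia in the standard sham had an Mt1 UMI, against 10.9% in the ActD sham, 39.2% at 3 dpi and 25% at 14 dpi. Without thinning, 76.8% of microglia in the standard sham had one. B cells, which carried little Mt1, had a thinned share of 6.57% in the standard sham, 0 of 64 cells in the ActD sham, 11.5% at 3 dpi and 1.65% at 14 dpi.

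Mt2 ranged more widely than Mt1. It was at 68.9 CPM in microglia of the standard sham, 1.64 in the ActD sham (26 UMIs, 1.07 to 2.40), 83.7 at 3 dpi and 9.75 at 14 dpi. Here the 3 dpi library was the highest. UMIs are counted at the 3′ end and are not scaled to length, so only the balance of both genes is compared between libraries. Mt2 made up 5.73% of the UMIs of both genes in microglia of the standard sham, 1.41% in the ActD sham, 10.9% at 3 dpi and 2.84% at 14 dpi. The macrophages gave 7.10%, 3.37%, 11.4% and 3.88%. In both classes the Mt2 share was thus largest at 3 dpi. It was smallest in the ActD sham in microglia, while in macrophages the intervals of the ActD sham and 14 dpi overlapped. The longest exact stretch shared by transcripts of both genes was 20 bases.

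**Figure D1:**
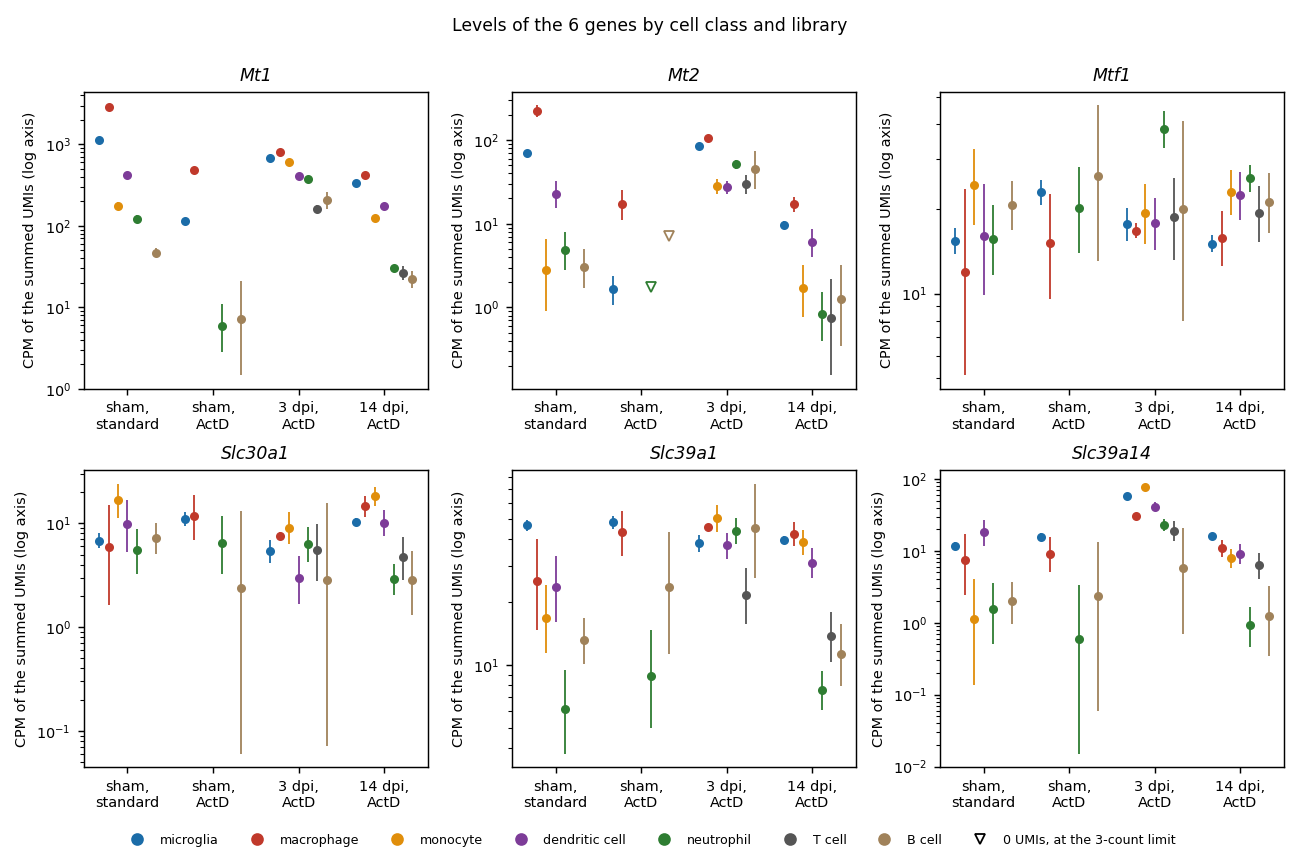
Level of each gene (CPM of UMIs summed per class and library, log axis) by library, with a colour for each class of at least 50 cells and bars for the exact Poisson 95% interval. Open triangles mark 0 UMIs at the 3-count limit. Mt1 in microglia falls from 1134 CPM in the standard sham to 115 in the ActD sham and stands at 685 at 3 dpi.

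The importer gene Slc39a14 had another pattern. It was at 11.8 CPM in microglia of the standard sham, 15.4 in the ActD sham (13.5 to 17.5), 57.6 at 3 dpi (53.3 to 62.1) and 16.0 at 14 dpi. The 3 dpi library stood well above the other three, and the 14 dpi interval overlapped that of the ActD sham. Slc30a1, the exporter gene, was at 6.83, 11, 5.36 and 10.4 CPM in the same order of libraries, so that it was lower in the standard sham and at 3 dpi. Mtf1 held a narrow range of 15.4, 22.8, 17.6 and 15.0 CPM. Slc39a1 likewise ranged only from 38.4 CPM at 3 dpi to 48.3 in the ActD sham.

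The 2 sham libraries, without and with ActD, were compared in uninjured microglia. They may differ in more than ActD, with Cell Ranger 3.0.1 and 3.1.0 and 14.5% and 3.0% of B cells among kept cells. The part of ActD itself in these ratios was not tested. Mt1 was 9.85-fold higher in the standard sham (log2 ratio 3.30, 3.23 to 3.37) and Mt2 was 42-fold higher (5.39, 4.83 to 6.01). A gene was counted as higher or lower when its ratio reached 2-fold with an interval away from no change. By this rule 2 of the 6 genes were higher and 0 lower, beside 8.01% of 12074 genes higher and 21.1% lower. The median log2 ratio of all genes was -0.53, and the TMM scaling of edgeR moved every gene up by 0.48. Relative to that shift, Slc39a1 turned from -0.04 to 0.44 and Slc39a14 from -0.38 to 0.10. Mtf1 (-0.57) and Slc30a1 (-0.69) were near the median of all genes and not called, and came to -0.09 and -0.21 with TMM.

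The effect of time after injury was read against the ActD sham. At 3 dpi microglia had 5.96-fold more Mt1 (log2 2.57, 2.50 to 2.65), 51.0-fold more Mt2 (5.67, 5.11 to 6.29) and 3.74-fold more Slc39a14 (1.90, 1.69 to 2.12). Slc30a1 was lower (-1.04, -1.48 to -0.62), at -0.67 with TMM scaling. This made 3 of 6 genes higher, beside 14.4% of 11971 genes, and 1 of 6 lower, beside 31.4%. Mtf1 (-0.37) and Slc39a1 (-0.33) stayed close to the median of all genes, which was -0.50. TMM added 0.37, which took both close to 0, with Slc39a1 at 0.04.

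At 14 dpi Mt1 was 2.90-fold higher than in the ActD sham (log2 1.54, 1.47 to 1.61) and Mt2 was 5.94-fold higher (2.57, 2.0 to 3.20). These were 2 of 6 genes higher, beside 7.2% of 12531 genes, and 0 lower, beside 19.1%. Slc39a14 was at 0.06 and Slc30a1 at -0.09, both with intervals that held 0. Under TMM, which added 0.53, these came to 0.58 and 0.44. Between the injured libraries, Mt1 (-1.04), Mt2 (-3.10) and Slc39a14 (-1.84) were lower at 14 dpi than at 3 dpi, 3 of 6 genes beside 14.4% of 12554. Mt1 was near the 2-fold limit and at -0.89 under TMM. Slc30a1 was at 0.95 and not called, and 0 of 6 were called higher, beside 8.88%.

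**Figure D2:**
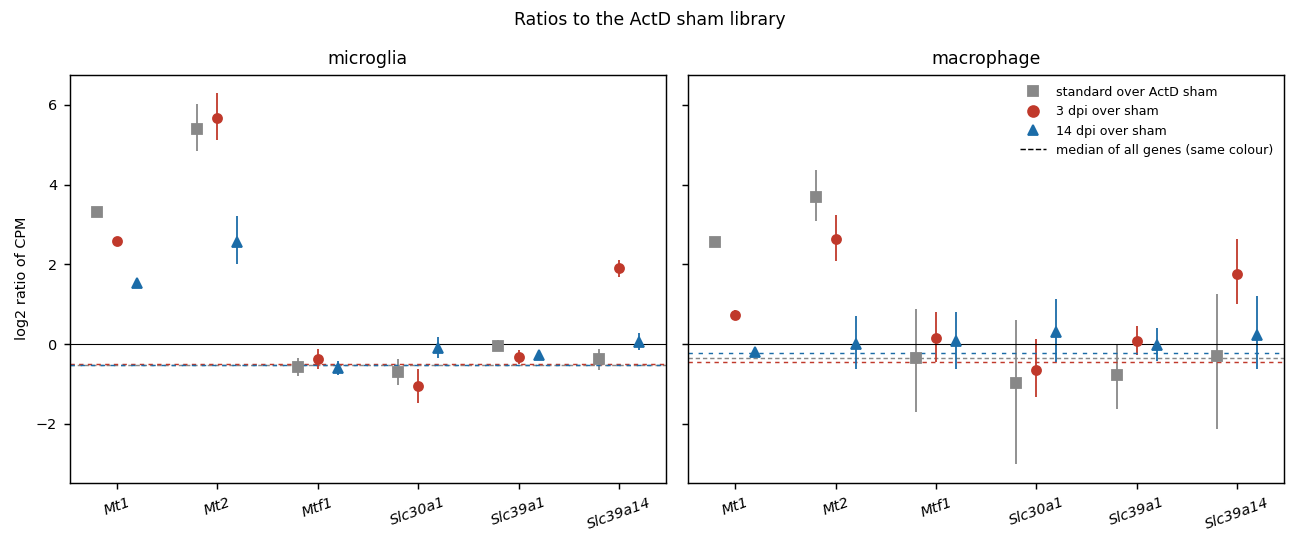
Log2 ratio of CPM to the ActD sham library for the 6 genes in microglia (left) and macrophages (right), with exact 95% counting intervals and dashed lines for the median of all genes. In microglia Mt1 and Mt2 lie above 0 in all 3 ratios, while Slc39a14 is above 0 by more than its interval only at 3 dpi, at 1.90.

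Both metallothionein genes and most immediate early genes were higher in microglia in the first 2 comparisons. In microglia 14 of 14 immediate early genes were higher in the standard sham and 13 of 14 at 3 dpi, against 5 of 14 at 14 dpi, beside 8.01%, 14.4% and 7.2% of all genes. Values were therefore also read in microglia with at most 1 immediate early UMI of 1000, a limit chosen after the data were seen. These were 54 of 3035 cells in the standard sham, 1274 of 1569 in the ActD sham, 94 of 615 at 3 dpi and 3598 of 4273 at 14 dpi. The limit thus kept 1.78% of microglia in the standard sham but 81.2% in the ActD sham. The 54 cells also held fewer UMIs per cell than all microglia of the standard sham. In the cells kept in each library Mt1 was at 326, 119, 721 and 335 CPM, and Mt2 at 21.4, 1.68, 74.6 and 9.80. The log2 ratio of Mt1 between the sham protocols was then 1.45 (1.06 to 1.82) in place of 3.30, while the 3 dpi ratio was 2.60 (2.48 to 2.71) and the 14 dpi ratio 1.49 (1.42 to 1.57). Slc39a14 stood at 5.34, 15.3, 46.1 and 15.4 CPM in these cells, from 1 UMI in the standard sham. Its 3 dpi ratio was 1.60 (1.18 to 2.0).

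**Figure D3:**
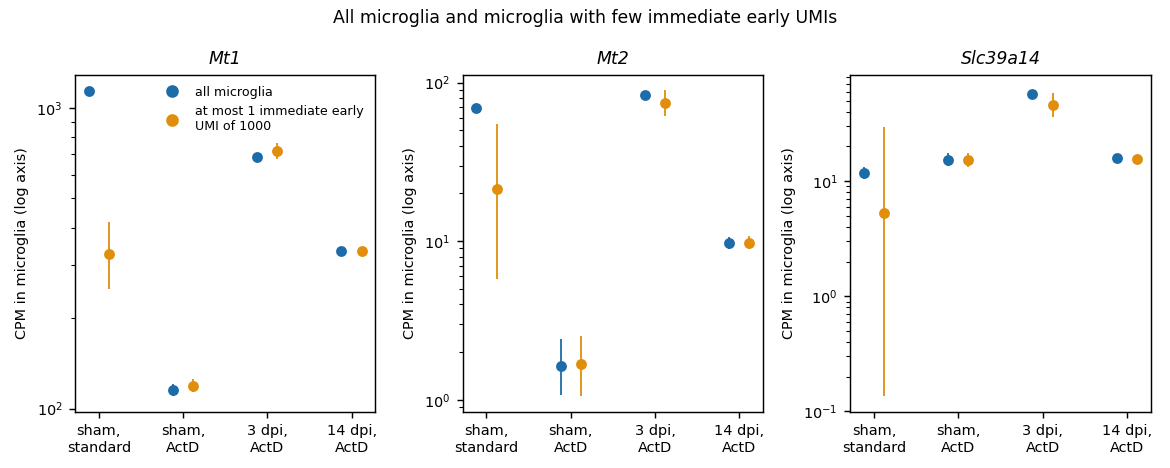
CPM of Mt1, Mt2 and Slc39a14 in all microglia and in microglia with at most 1 immediate early UMI of 1000, by library (log axes, exact Poisson 95% intervals). Mt1 in the standard sham is 326 CPM in the second set of cells against 1134 in all, and at 3 dpi it is 721 against 685.

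Within microglia, every cluster of at least 50 cells carried Mt1. The cluster led by microglial genes such as P2ry12, Sparc or Slc2a5 had 561 CPM in the standard sham, 99.5 in the ActD sham, 461 at 3 dpi and 201 at 14 dpi. A second cluster, led by Gpr84 and Il1a in the standard sham and by Nav3 or Sparc in the others, had 1584, 129, 738 and 282 CPM. Both clusters thus kept the order of the libraries. At 3 dpi the microglia also held clusters of 106 and 181 cells led by cell cycle genes such as Top2a and Cenpf, with no microglial marker among the leading genes. Their Mt1 was at 565 and 784 CPM. With the other 329 cells alone the 3 dpi ratio of Mt1 was 2.56, that of Mt2 5.74 and that of Slc39a14 1.68.

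At 14 dpi most microglia (2237 cells) lay in a cluster led by Lpl and Ch25h, with 372 CPM of Mt1 and 14.9 of Slc39a14. Slc39a14 was higher in smaller clusters, at 40.7 CPM in 164 cells led by Lpl and Nav3, at 30.8 in 101 cells led by Ccl12 and Cxcl10 and at 26.0 in 57 cells led by Olfml3 and Tmem119. These rested on 21, 43 and 23 UMIs, with intervals of 25.2 to 62.2, 22.3 to 41.5 and 16.5 to 39.0 CPM. The interval of the 2237 cells was 13.7 to 16.3. Median depth was 2963.5 UMIs in the 164 cells and 13557 in the 2237. In the ActD sham, the cluster led by Lpl and Ch25h at 14 dpi held 66 cells, led by Lpl, Spp1 and Ccl4. These had 355 CPM of Mt1 and 12.3 of Mt2, close to the 372 and 11.1 of this cluster at 14 dpi. They were left unnamed and so stood outside the ActD sham microglia of the ratios above. In the standard sham this cluster held 106 cells, led by Gpr84, Lpl and Spp1, and was named microglia. At 3 dpi it was named macrophage. Its part in the ratios of microglia was not tested.

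Cells were also assigned to male or female animals by their sex-linked transcripts. Mt1 in male and female microglia was at 1169 and 1087 CPM in the standard sham, 104 and 124 in the ActD sham, 665 and 775 at 3 dpi, and 360 and 306 at 14 dpi. In microglia the Mt1 differences between sexes were smaller than those between libraries. Slc39a14 was at 59.6 and 59.7 CPM at 3 dpi but at 10.4 and 20.4 in the ActD sham, which gave 3 dpi ratios of 2.52 in male and 1.55 in female cells. Mt2 in the male ActD sham rested on 3 UMIs and in the female on 20. Its log2 ratio was 6.97 in male and 4.65 in female cells between the sham protocols, 7.20 and 5.55 at 3 dpi, and 4.36 and 1.67 at 14 dpi. Microglia were not balanced at 3 dpi, with 315 male and 84 female cells, against 592 and 705 in the ActD sham. Some other classes were unbalanced too. Of 732 B cells in the standard sham 608 were called female, and of 485 at 14 dpi 272 were called male. Neutrophils at 14 dpi had 529 male and 61 female cells. Mt1 in neutrophils at 3 dpi was at 318 CPM in male and 549 in female cells. The part of sex in the ratios of these classes was not tested.

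Macrophages carried more Mt1 than microglia in all 4 libraries. Their Mt1 was at 2895 CPM in the standard sham (101 cells), 489 in the ActD sham (134 cells), 816 at 3 dpi (3910 cells) and 424 at 14 dpi (409 cells). Their Mt2 was at 221, 17.0, 105 and 17.1 CPM. Both genes were thus highest in the standard sham, and at 14 dpi were near the ActD sham. Macrophage Slc39a14 was at 7.42, 9.17, 31 and 10.8 CPM. The other 3 genes ranged from 5.94 to 14.6 CPM for Slc30a1, 11.9 to 16.7 for Mtf1 and 25.2 to 45.8 for Slc39a1.

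Between the sham protocols Mt1 was 5.92-fold and Mt2 13-fold higher in macrophages of the standard sham, 2 of 5 genes tested, beside 4.99% of 7976 genes, with 0 lower, beside 12.8%. At 3 dpi Mt2 (log2 2.63, 2.08 to 3.24) and Slc39a14 (1.76, 1.01 to 2.63) were higher, 2 of 6 genes beside 7.98%, and 0 were lower, beside 25.8%. Mt1 was at 0.74 (0.63 to 0.85), under the 2-fold limit, and at 1.33 under TMM, which added 0.60. At 14 dpi 0 of 6 were called either way, beside 5.52% higher and 10.9% lower, and Mt1 was at -0.20 or, with TMM, 0.09. Against 3 dpi, Mt2 (-2.62) and Slc39a14 (-1.52) were lower at 14 dpi, 2 of 6 beside 7.32%, with 0 higher, beside 15.2%.

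The macrophages of the libraries differ in kind. In the ActD sham 89 of 134 lay in the cluster led by the border macrophage genes Mrc1, Pf4 and Cd163, whereas 2196 of 3910 at 3 dpi lay in one led by Fabp5 and Gpnmb. In the Mrc1 and Pf4 cluster, which at 3 dpi was also led by Arg1 and Ccl24, Mt1 was at 2895 CPM in the standard sham, 565 in the ActD sham, 1071 at 3 dpi and 317 at 14 dpi. Mt2 in this cluster was at 221, 17.6, 178 and 17.6 CPM and Slc39a14 at 7.42, 8.27, 50.7 and 14.7. At 3 dpi all 3 genes were higher there than in the Fabp5 and Gpnmb cluster, which had 740 CPM of Mt1, 81.4 of Mt2 and 19.0 of Slc39a14.

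**Figure D4:**
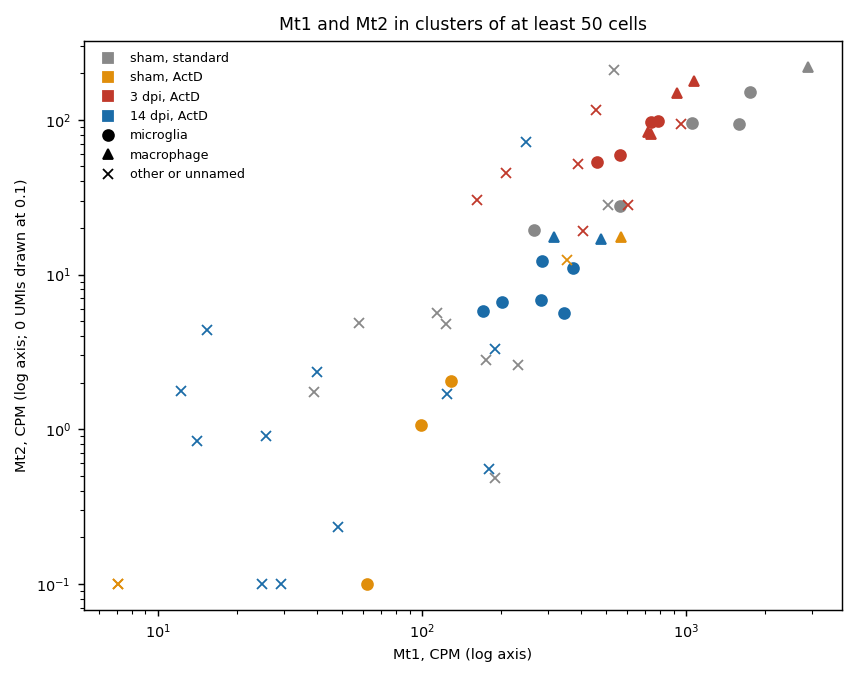
Mt2 against Mt1 (CPM, log axes) in each cluster of at least 50 cells, coloured by library, with circles for microglia, triangles for macrophages and crosses for other or unnamed clusters (0 UMIs drawn at 0.1). Microglia and macrophage clusters at 3 dpi lie at 461 to 1071 CPM of Mt1.

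Of the other classes, monocytes had 175 CPM of Mt1 in the standard sham, 606 at 3 dpi and 125 at 14 dpi, and 1.13, 76.1 and 7.89 CPM of Slc39a14. The 3 dpi value of Slc39a14 was the highest of any class and library. Against 3 dpi, Mt1 (-2.28), Mt2 (-4.06) and Slc39a14 (-3.27) were lower at 14 dpi in monocytes, 3 of 6 genes beside 7.49%, with 0 higher, beside 17.8%. The leading genes of the monocytes differed too, with Dmkn, Plac8 and Ly6c2 among them at 3 dpi and Ace, Adgre4 and Treml4 at 14 dpi. Dendritic cells gave the same 3 genes lower, at -1.19, -2.17 and -2.18, beside 4.82%, and Slc30a1 higher (1.78, but -0.87 in male cells alone, from 9 and 3 UMIs), beside 7.92%. The leading genes of the main dendritic cell cluster differed as well. Its 494 cells at 3 dpi had H2-Eb1, Klrd1 and Cd7 among them, and its 390 cells at 14 dpi Cd209a, Clec10a and Flt3. The small Ccr7 and Fscn1 cluster of dendritic cells, the migratory kind, had 116 CPM of Mt2 at 3 dpi, against 19.2 in the main dendritic cell cluster.

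Neutrophils had 122 CPM of Mt1 in the standard sham, 5.93 in the ActD sham, 378 at 3 dpi and 30.1 at 14 dpi. The ActD sham value rests on 10 UMIs in 3 of 102 cells, and so do the ratios of Mt1 to it. Mt2 had 0 UMIs in the ActD sham, with an interval up to 2.19 CPM, and 51.2 CPM at 3 dpi. The lower limit of its log2 ratio was 4.54. Mt1, Mt2, Slc39a1 (log2 2.30) and Slc39a14 were higher at 3 dpi, 4 of 6 genes, but so were 50.2% of 9316 genes, against 6.91% lower, and the median of all genes was 1.08. TMM scaling took 0.98 off each gene and left Mt1 at 5.02 and Slc39a1 at 1.33. Slc39a14 rested on 1 UMI in the sham, with a ratio interval of 2.77 to 10.60. Median depth was 2287 UMIs per neutrophil at 3 dpi and 13540 in the ActD sham. The neutrophils of the libraries also differ in kind. In the ActD sham 76 of 102 lay in a cluster with Ngp, Camp and Ltf among its leading genes. At 3 dpi 1793 of 1828 lay in another, with Hdc, G0s2 and Cxcr2 among them. At 14 dpi 660 of 1388 lay in the first of these. Between the sham protocols 1 of 4 genes tested was higher, Mt1 at 4.36, beside 14.7%, and 0 lower, beside 7.41%. In the standard sham the 10 microglial markers were read in neutrophils at 8.79% to 11.1% of their microglial level, and Mt1 at 10.8%, inside that range. The part of RNA released by other cells in this Mt1 level, and in its ratio between the sham protocols, was not tested. At 14 dpi Mt1 was higher (2.34), 1 of 4 genes beside 14%, and Slc30a1 lower (-1.16), 1 of 4 beside 3.87%. Against 3 dpi, 5 of 6 were lower at 14 dpi, among them Slc30a1 at -1.12, or -0.18 under TMM, beside 43.5%, and 0 higher, beside 8.09%.

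Lymphocytes carried less Mt1 than microglia of the same library. T cells had 159 CPM of Mt1 at 3 dpi and 26.3 at 14 dpi, and Mt1, Mt2 and Slc39a14 were lower at 14 dpi, 3 of 6 beside 5.91%, with 0 higher, beside 6.23%. B cells had 47.0, 7.10, 208 and 22.0 CPM of Mt1, from only 3 UMIs in the ActD sham. In them Mt1 was higher than the ActD sham in the standard sham (beside 8.68% higher and 9.2% lower), at 3 dpi (beside 6.09% and 13.4%) and at 14 dpi (beside 10.3% and 8.57%), which was 1 of 4, 1 of 2 and 1 of 3 genes tested, with 0 lower. Against 3 dpi, 3 of 4 genes tested were lower in B cells at 14 dpi, Mt1, Mt2 and Slc39a1, beside 9.57%, and 0 higher, beside 16%. The B cells of the libraries also differ in kind. A cluster with Vpreb1 and Igll1 among its leading genes held 205 of 732 in the standard sham and 202 of 485 at 14 dpi. It gave 56 of the 70 Mt1 UMIs at 14 dpi. In the ActD sham and at 3 dpi all B cells lay in another cluster. The part of cell kind in these ratios was not tested.

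Droplets also hold RNA released by other cells. At 3 dpi the 9 injury macrophage markers were read in T cells at 11.3% to 20.9% of their macrophage level and Mt1 at 19.5%, and in B cells at 12.7% to 28.2% with Mt1 at 25.5%. Mt1 in both was inside the range of those markers, so its level at 3 dpi and its difference from the other libraries cannot be told apart from free RNA. Mt2 was above the range, at 28.2% in T cells and 43.3% in B cells, the latter from 16 UMIs. In neutrophils the markers were at 16.1% to 33.1%, with Mt1 at 46.3% and Mt2 at 48.6%, above that range. In dendritic cells they were at 8.13% to 30.5%, with Mt1 above at 49.7% and Mt2 inside at 25.9%. The markers spread more widely in the other myeloid classes, from 12.5% to 103% in microglia, with Mt1 at 84.0% and Mt2 at 79.5%, and from 17.2% to 253% in monocytes, with Mt1 at 74.3% and Mt2 at 26.7%. In these 2 classes Mt1 and Mt2 were inside the range, and the part of free RNA in them was not tested. At 3 dpi, without thinning, Mt2 was found in 49.9% of microglia with an Mt1 UMI and 23.4% of the 47 without one. Macrophages gave 50.3% and 17.7%, monocytes 18.6% and 10.8%, and dendritic cells 16.6% and 15.7%. The shares were 10.9% and 10.2% in T cells, 8.51% and 8.33% in B cells and 11.7% and 9.59% in neutrophils. The classes differ in depth, and the part of depth in these shares was not tested.

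Ordered by level over the 28 sums of a class in a library, Mt1 ran from 2895 CPM in macrophages of the standard sham to 5.93 in neutrophils of the ActD sham, and 17 of 27 neighbours in that order had overlapping intervals. For Mt2 21 of 27 overlapped, and for Slc39a14 23 of 27. For Mtf1, Slc30a1 and Slc39a1 all 27 did, so that no single step in their order went beyond counting error. Their highest and lowest sums still differed, 3.29-, 7.70- and 8.26-fold, with intervals apart, though the lowest of Slc30a1 rested on 1 UMI. Mtf1 was highest in myeloid progenitors of the standard sham (39.1 CPM) and neutrophils at 3 dpi (38.3), and Slc30a1 in monocytes at 14 dpi (18.2). Mast cells or basophils of the standard sham had 535 CPM of Mt1 and 210 of Mt2, so that Mt2 made up 28.2% of both, the highest share of any class and library described. The same cluster at 14 dpi, 89 cells left unnamed and led by Mcpt8 and Hba-a1, had 249 CPM of Mt1 and 72.1 of Mt2.

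Of the other metallothioneins, Mt3, a brain form, was at 0.633, 4.73, 3.41 and 3.68 CPM in microglia, and Mt4 had 0 UMIs in every class. Among the other zinc exporters, 5 were measured in microglia at 3 dpi, with 0 higher, 2 lower and a median log2 ratio of -0.90. Among the other importers, 11 were measured, with 0 higher, 3 lower and a median of -0.58, against -0.50 for all genes. Of all genes, 31.4% were lower in that comparison, so these counts of lower genes were near the share over all genes. Slc30a4 (-1.98) and Slc39a12 (-4.09, from 2 UMIs) were among the lower ones. Between the sham protocols the exporters gave 0 higher and 2 lower of 5, among them Slc30a6 (-1.2), and the importers 0 and 1 of 11. At 14 dpi the exporters gave 0 and 0 of 5, the importers 1 higher and 3 lower of 11. Of all genes, 21.1% were lower between the sham protocols and 19.1% at 14 dpi. Slc39a4, an importer, was at 11.9 CPM at 14 dpi and 1.19 at 3 dpi.

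Genes of pathways that are known to act on metallothioneins were counted in the same microglia, where 8.01%, 14.4% and 7.2% of all genes were higher and 21.1%, 31.4% and 19.1% lower in the standard sham, at 3 dpi and at 14 dpi. Of 7 NRF2 targets measured, genes of the oxidant response, 5 were higher in the standard sham, 6 at 3 dpi and 3 at 14 dpi, where 1 was lower. Hmox1, heme oxygenase, was at 32.8 CPM in the ActD sham and 1527 at 3 dpi, and Srxn1, sulfiredoxin, at 1.2 and, at 14 dpi, 8.24. Glucocorticoid response genes were higher in the standard sham in 6 of 8, with Ddit4 lower (-1.46), but in 1 of 7 at 3 dpi and 0 of 8 at 14 dpi, where 4 were lower. For IL-6 and STAT3, 4 of 8 were higher and 2 lower in the standard sham, 3 higher and 4 lower at 3 dpi, and 0 higher and 5 lower at 14 dpi. Il6 itself was at 16.7 CPM in the ActD sham, 1.02 at 3 dpi and 0.924 at 14 dpi, and its receptor gene Il6ra at 324 and, at 3 dpi, 55.3. Cebpd fell from 166 CPM to 45.3 at 14 dpi. Of 7 copper handling genes 0 were higher and 2 lower in the standard sham, among them Cox17 (-1.58), and 1 higher and 0 lower at both 3 and 14 dpi.

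The immediate early genes differed most in the standard sham. Fos was at 5487 CPM in microglia of the standard sham, 6.82 in the ActD sham, 864 at 3 dpi and 14.5 at 14 dpi. In the standard sham Nr4a1 (log2 8.71), Fosb (8.41) and Atf3 (8.20) were higher too, as were Nr4a1 (6.04) and Dusp1 (5.49) at 3 dpi. At 14 dpi Atf3 (2.24), Egr2 (1.89) and Ier3 (1.46) were the largest of 5 of 14 immediate early genes that were higher, with 2 lower. Against 3 dpi, 13 of 14 were lower at 14 dpi, with Fosb at -5.41.

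Genes most like each member were named by Pearson's r of log2(CPM + 1) over the 28 sums, which share libraries, classes and depth. For Mt1 these were Parvb (0.915), Tceal8 (0.910) and Tnfrsf12a (0.869), and for Mt2 Pf4 (0.853) and Lmna (0.849). For Slc39a14 they were Mroh1 (0.833) and Spsb1 (0.809), and for Slc39a1 Plbd2 (0.886), Wdr81 (0.885) and Sumf1 (0.875). Mtf1 was most like Traf7 (0.822), Taf12 (0.796) and Cdc34 (0.795), and Slc30a1 most like Zfyve9 (0.829), Clec4a3 (0.810) and Kctd12b (0.797). These are descriptions over 11966 genes compared.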

How the data were processed

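CD45 positive cells were profiled in 4 libraries of 10x 3′ scRNA-seq, 1 per condition. The authors deposited filtered matrices of raw UMI counts per gene and cell from Cell Ranger (3.0.1 for the standard sham and 3 dpi, 3.1.0 for the ActD sham and 14 dpi, per the file headers; mm10 per the submitters' processing notes). Barcodes under 600 genes or over 10% mitochondrial UMIs were dropped, cells with Itgam beside lymphocyte genes and doublets called by Scrublet (0.8% per 1000 cells) were removed, and Seurat 5.3.0 clustered the integrated libraries (50 dimensions, resolution 0.6) without the members and pathway genes. Clusters were named from at least 3 detected markers, and UMIs were summed per class and library, at 351196 to 65433833 UMIs per sum, and given as CPM. Exact Poisson, Clopper-Pearson and conditional ratio intervals were computed in scipy 1.17.1. Classes of at least 50 cells and genes of at least 20 UMIs were compared. On Poisson counts simulated for 11850 genes of the 3 dpi comparison of microglia, 95.6% of the intervals held the true ratio. The interval assumes the same model, so this checks the computation and not the spread between cells or animals. Alternatives included TMM (edgeR 4.0.16), other filters, clusterings and sexes. The members, the lists of pathway genes and the comparisons were chosen with earlier results of these data known. Named were the 6 members, Mt3 and Mt4, the 4 pathway genes with the largest change each way in microglia, and the 3 genes most like each member, of which some are not reported here. Male and female cells were told apart by sex-linked transcripts.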

Additional observations from a re-analysis of the deposited data

Results flagged for a closer look

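Slc30a1 moved in opposite directions in 2 classes between the injured libraries. Its log2 ratio of 14 over 3 dpi was 1.78 in dendritic cells (from 15 UMIs at 3 dpi to 47) and -1.12 in neutrophils (from 28 UMIs to 35, in a larger sum). The difference between the classes was not tested. The main clusters of both classes also had different leading genes in these libraries. Under TMM scaling the neutrophil value was -0.18 and the dendritic cell value 1.62.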

How the results depend on the processing

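Of 97 ratios of the 6 genes 44 were called, and 1 of these changed direction under an alternative: Slc30a1 in dendritic cells, 14 over 3 dpi, was at 1.78 and in male cells alone at -0.87, from 9 UMIs at 3 dpi and 3 at 14 dpi, under the 20 UMIs asked of a comparison. Mt1 in microglia kept its direction under every alternative that was run. Between the sham protocols (3.30) it was 3.78 with TMM, 3.19 as a mean over cells, 3.17 with libraries merged without integration, 3.49 in male and 3.13 in female cells, and 1.45 in cells with few immediate early UMIs. At 3 dpi (2.57) it was 2.95 with TMM, 2.81 with each library clustered alone, 2.45 at the higher resolution, 2.49 and 2.74 with the looser and stricter filter on cells, and 2.67 in male cells. At 14 dpi (1.54) it was 2.06 with TMM, 1.08 merged, 1.42 at the higher resolution, 1.79 in male and 1.30 in female cells. The cause of these shifts was not tested. Removing shared barcodes moved none of the 97 ratios beyond its interval. No paired analysis was possible because each condition was 1 library. Depth limits Mt2 in the ActD sham (26 UMIs in microglia) and all low counts in B cells and neutrophils there, and variation between animals could not be measured.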
